A study of Mus musculus with 5 samples.

Results

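Cytosolic ribosomal protein genes encode the proteins of the ribosome that translates nuclear messages in the cytoplasm. The members were the rows of the deposited count table whose symbols follow the Rpl or Rps naming pattern, with Rplp0, Rplp1, Rplp2 and Rpsa added and S6 kinases, pseudogenes and non-coding rows left out. They numbered 84 of 21289 genes, 52 named for the large subunit and 32 for the small subunit. Among them, 77 were core genes (46 large, 31 small), 5 were paralogs named for their likeness to a core gene (Rpl3l, Rpl7l1, Rpl22l1, Rpl39l and Rps27l), and 2 were further like-named copies (Rpl6l and Rpl32l). The rule reads names and no measured value, although this set of genes was proposed with earlier results of these data known.

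The large subunit joins amino acids into a chain, and the small subunit reads the message. Cells make ribosomal proteins in a coordinated way, and their messages commonly begin with a C followed by a tract of pyrimidines, the 5′ TOP element, through which growth signalling by mTORC1 and the binding protein LARP1 sets how well they are translated. In macrophages ribosome production is known to follow growth and activation. Messenger RNA levels, measured here, do not give the amount of ribosome or its rate of translation.

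The libraries came from macrophages sorted from the hearts of wild-type male C57BL/6JGpt mice as CD45+CD64+ cells on day 7 after myocardial infarction, so every library carries the infarct and none is from an uninjured heart. The 2 untreated libraries (MI) had no curcumol, and no vehicle is named for them. The 3 curcumol libraries (MI_curcumol) came from mice given curcumol, a sesquiterpene of Curcuma plants, at 30 mg/kg by mouth once a day over those 7 days. Age, and whether a library held 1 heart or a pool, are not given, so a p-value measures only the spread between these libraries. The study asked how curcumol alters macrophages of the infarcted heart.

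Library totals ran from 39768705 to 43315822 counts, with at least 1 count for 12243 and 12915 genes untreated and for 17188, 17078 and 18501 genes with curcumol. The 10 pan-leukocyte and macrophage markers were abundant in all 5 libraries, with a summed level of 41716 and 41738 CPM untreated and 42028, 38539 and 36292 with curcumol (CPM are counts per 1000000 after TMM scaling, a correction of library totals, and all levels below are on this scale). Of these markers, Lyz2 (from 20527 to 26055 CPM) and Fcgr1, which encodes the CD64 of the sort (from 249 to 373 CPM), were high in each library. The 10 neutrophil markers summed to 359 and 399 CPM untreated and to 3523, 1562 and 3078 CPM with curcumol, with Camp and Ly6g at 0 in both untreated libraries. The 8 fibroblast markers summed to 36.8 and 30.5 CPM untreated and to 132, 156 and 330 CPM with curcumol. In 5 of them (Col1a1, Col3a1, Dcn, Lum and Pdgfra) all curcumol values lay above both untreated ones, while Col1a2, Postn and Tcf21 overlapped. Lum and Pdgfra were at 0 in both untreated libraries, and Pdgfra was low with curcumol too (0.693, 2.27 and 0.540 CPM). The 12 cardiomyocyte markers summed to 29.0 to 59.6 CPM and 109 to 127 CPM, the 8 endothelial markers to 3.84 to 3.88 CPM and 25.6 to 40.3 CPM, and the 5 erythroid markers to 37.5 to 80.2 CPM and 12.9 to 25.4 CPM, untreated and with curcumol in turn. In bulk libraries fewer cells of a type and less RNA per cell cannot be told apart, and the part of other cell types in the results below was not tested.

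The start of the messages shows what many members share in sequence. RefSeq promoters (GRCm38.p6) were found for 57 of the core genes, 67 promoters in all. The following windows of 30 bases run from 10 bases before an annotated start, with the pyrimidine run of at least 5 bases that covers the start or lies nearest to it in capitals. In the Rps25 window only the last bases of such a run are seen, since it begins before the window, and the Rpl37a window has none. The first 6 are shown because their run covers the start and the annotated start base is a C, and the last 3 because their genes departed most from the common pattern described below.
Rps6 (chr4:86857348-86857377, minus strand): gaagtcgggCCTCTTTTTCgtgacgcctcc
Rps18 (chr17:33955646-33955675, minus strand): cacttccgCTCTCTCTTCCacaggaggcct
Rps27 (chr3:90213629-90213658, minus strand): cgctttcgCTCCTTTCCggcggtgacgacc
Rpl35 (chr2:39005112-39005141, minus strand): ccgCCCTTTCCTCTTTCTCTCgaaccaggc
Rpl38 (chr11:114668570-114668599, plus strand): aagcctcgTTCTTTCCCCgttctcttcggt
Rplp2 (chr7:141447641-141447670, plus strand): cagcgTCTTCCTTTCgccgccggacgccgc
Rps12 (chr10:23787190-23787219, minus strand): tcatgcggccaccgccggCCTTTTCCCCTg
Rpl37a (chr1:72711250-72711279, plus strand): ctcgccggtctaaaaccgcgcatgcgcatt
Rps25 (chr9:44407704-44407733, plus strand): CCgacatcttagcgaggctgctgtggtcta

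A C followed by at least 4 pyrimidines stood exactly at the annotated start of 13 of the 67 core promoters (19.4%), against 2.51% of all 32851 promoters in the same table. A run of at least 8 pyrimidines reaching to within 10 bases of the start was present in 27 of them, from 26 genes (40.3%), against 13.0% of all promoters. In the Rps12 window the run begins 8 bases after the annotated start base, so Rps12 enters the second count only, and both counts depend on where the annotation places the start. The YY1 and ETS motifs were searched in the 300 bases around the start. AAGATGGC, a core of the YY1 motif, was found on either strand in 7 promoters (10.4%, against 2.75% of all), which belong to 5 genes because 3 of them are overlapping promoters of Rpl35a, and CCGGAAGT, an ETS factor motif, in 11 promoters of 11 genes (16.4%, against 3.89%). TATAAA was searched on the coding strand only in a short upstream stretch that ended 11 bases before the start. It was found there in 0 of 67 (2.22% of all). These are matches of letters and not measured binding or initiation sites.

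The core genes also share sequence with other annotated genes. Of each core transcript's 50-base stretches, a median of 50.7% also occur in another GENCODE M21 gene, and the share ran from 0 to 98.6%. The short Rps27 message was the most shared, and the Rps6 message shared 84.6%. Reads from such stretches could be split or dropped by the counting, so levels of the members carry that uncertainty. Spearman's rho between the shared percentage and the level per kilobase of transcript was 0.30 over the 77 core genes, a description across genes of the same libraries. The 40 core genes with at least 50% shared had a median level of 206 CPM per kilobase, and the 37 others had 128. Both measures are taken over the length of the same transcript, so a long annotated transcript can lower both. Rps15a, with 5179 bases, had 6.28% shared and 13.2 CPM per kilobase. The part of length in this relation was not tested, so it does not show how sharing affects the counting. In RefSeq, 30 of the 84 members carry a small nucleolar RNA inside the gene and 18 overlap another gene.

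Ribosomal protein genes together took 1.28% and 1.29% of all counts in the untreated libraries and 1.25%, 1.38% and 1.83% in curcumol libraries 1, 2 and 3. The third curcumol library stood above the other 4, and the groups overlapped. The group means were 1.29% ± 0.0105 (SD, n = 2) untreated and 1.49% ± 0.304 (SD, n = 3) with curcumol. The Wilson 95% intervals reached at most 0.00417 percentage points to either side, so counting error is far smaller than the spread between libraries (intervals cover counting error only). Without the third curcumol library the curcumol mean was 1.32%. In the plot of shares by library the first curcumol library is the lowest and the third the highest for both subunits.

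**Figure D1:**
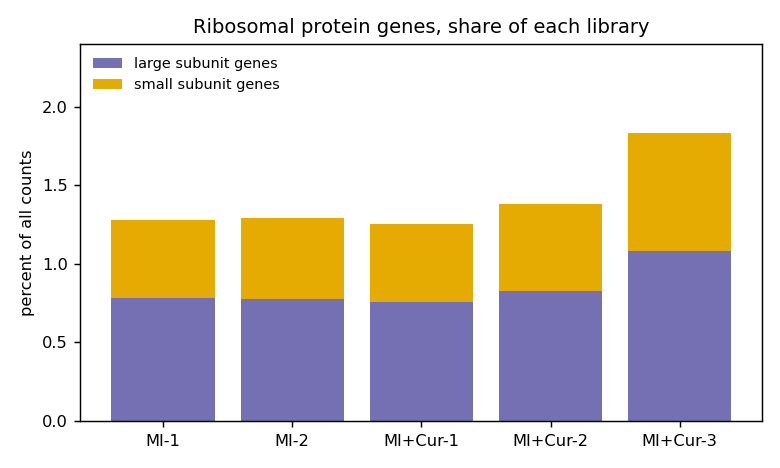
Percent of all counts of each library (bars, from 0) taken by large subunit genes (purple) and small subunit genes (yellow) in the 2 untreated and 3 curcumol libraries. The bars reach 1.28% and 1.29% untreated and 1.25%, 1.38% and 1.83% with curcumol, so the third curcumol library is the highest.

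Large subunit genes took 0.780% and 0.779% of the counts untreated and 0.756%, 0.825% and 1.08% with curcumol. Small subunit genes took 0.50% and 0.516% untreated and 0.496%, 0.554% and 0.747% with curcumol. The ratio of large to small counts was 1.56 and 1.51 untreated and 1.52, 1.49 and 1.45 with curcumol, so the subunits kept nearly the same proportion in every library. The third curcumol library had the lowest ratio, and the groups overlapped.

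No ribosomal protein gene passed the test between curcumol and untreated libraries. Of the 82 members with enough counts to be tested, 0 reached an adjusted p under 0.05 in edgeR's quasi-likelihood test, against 30 of all 14508 genes tested (0.207%; 10 higher, 0.0689%, and 20 lower, 0.138%). At an unadjusted p under 0.05 there was 1 member, Rpl37a, which was higher, against 24.6% of all genes (18.1% higher and 6.51% lower). Of the 4398 genes with an average log2 CPM of at least 5, 404 were higher and 653 lower at that level. DESeq2 also called 0 members, with 2 at an unadjusted p under 0.05 (Rpl37a and Rpl4, against 28.8% of all genes), although it called 2346 genes overall (16.2%). The 95% intervals of 73 of the 76 core genes tested lay within 1 log2 unit of 0 on both sides, a doubling or a halving, with a median width of 1.01. Differences well inside that width were not detectable with these libraries.

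The fold changes of the members lay close to 0. The median log2 fold change (curcumol minus untreated) was 0.03 over the 82 tested members, 46 positive and 36 negative, beside 0.15 over all genes tested and -0.10 over the 4398 abundant genes (average log2 CPM of at least 5). Large subunit members had 25 positive and 25 negative values with a median of -0.00076, and small subunit members had 21 positive and 11 negative with a median of 0.08. Without the third curcumol library 62 of the 82 values were negative, the median was -0.15 over all members, -0.17 over large and -0.13 over small subunit members, and 4 members had an unadjusted p under 0.05, all lower with curcumol, against 18.9% of all genes and 5.2% in that direction, and 0 passed the adjusted threshold (0.138% of all genes). The members' median thus changed sign when 1 library was left out. Under scaling by total counts alone, 71 members were positive with a median of 0.22, while the median over all genes moved from 0.15 to 0.34, so relative to all genes the members' median was -0.12 under both scalings.

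**Figure D2:**
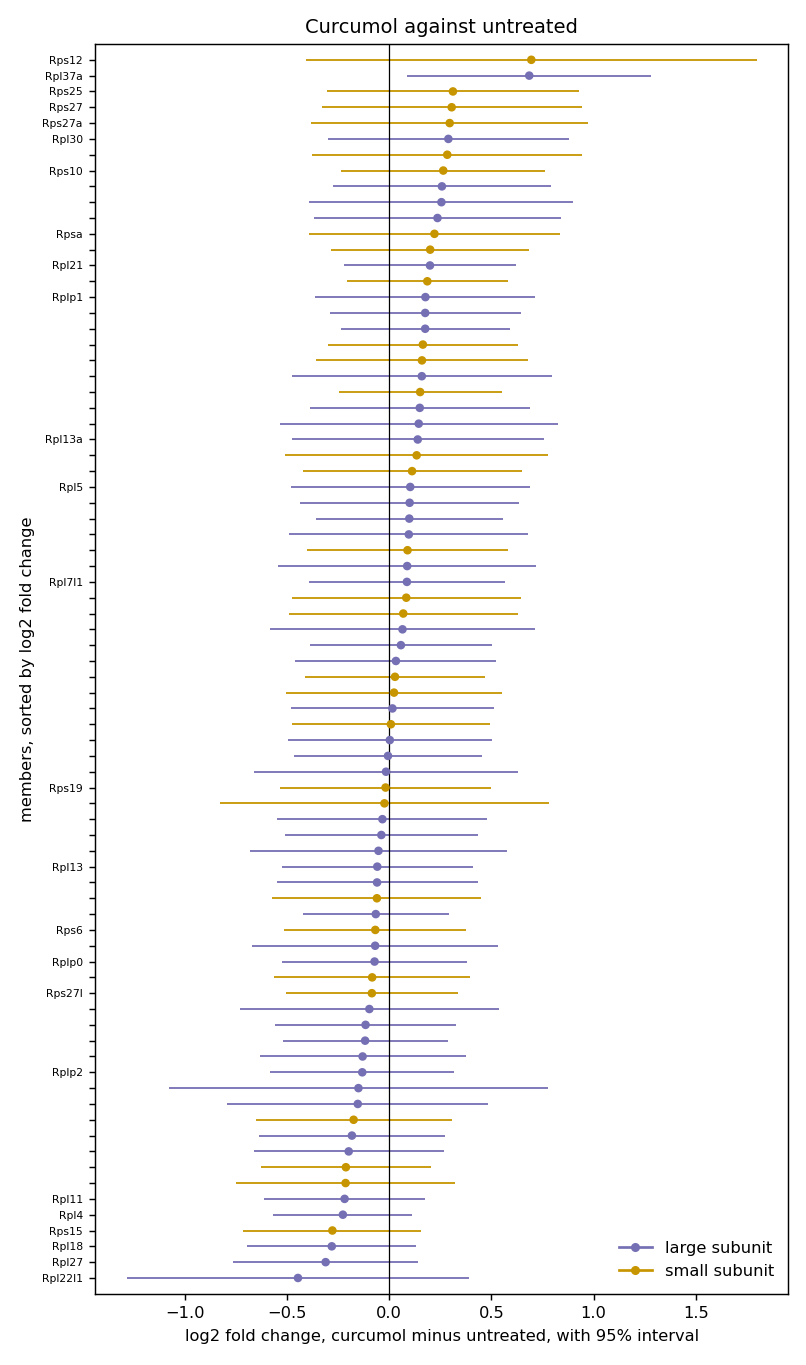
Log2 fold change of each tested member (points, curcumol minus untreated) with its 95% interval (lines), large subunit in purple and small subunit in yellow, sorted by value. Rpl3l and Rpl39l, which have few counts, and 2 further members are not drawn, and names mark members described in the text. Among those drawn, only the interval of Rpl37a lies off 0, and most points lie between -0.31 and 0.31.

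Groups that did not overlap were rarer among the members than among all genes. The 3 curcumol values lay above both untreated values in 3 of 82 members (Rpl21, Rpl37a and Rps10), against 29.5% of all genes tested. They lay below both in 4 members (Rpl4, Rpl11, Rpl27 and Rpl39l), against 14.9% of all genes. Most members are abundant, and the 4398 abundant genes leaned the other way, with 681 higher and 1201 lower. With scaling by total counts the members' split was 13 higher and 1 lower, against 36.6% and 9.31% of all genes. Abundant genes then had 1156 higher and 669 lower, so the direction of the split depends on the scaling. Under either scaling most members had overlapping groups, while 44.4% and 45.9% of all genes did not.

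The third curcumol library held more of nearly every ribosomal protein message. Of the 76 core genes with at least 100 counts, 76 were above the mean of curcumol libraries 1 and 2, by a ratio from 1.07 (Rpl23a) to 2.09 (Rps12) and a median of 1.37. Among all genes tested 47.7% were above that mean, and among abundant genes 42.7%. The third curcumol library was the highest of the 5 for 61 of these core genes, against 17.5% of all genes tested and 11.5% of abundant genes. The median ratio was 1.37 for large and 1.38 for small subunit genes. Curcumol libraries 1 and 2 differed little, with a median log2 difference of 0.05 over the core genes, and the untreated libraries by -0.06 (library 2 minus library 1). The curcumol libraries were given the same treatment, so this is a difference within a group and no treatment effect can be read from it.

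**Figure D3:**
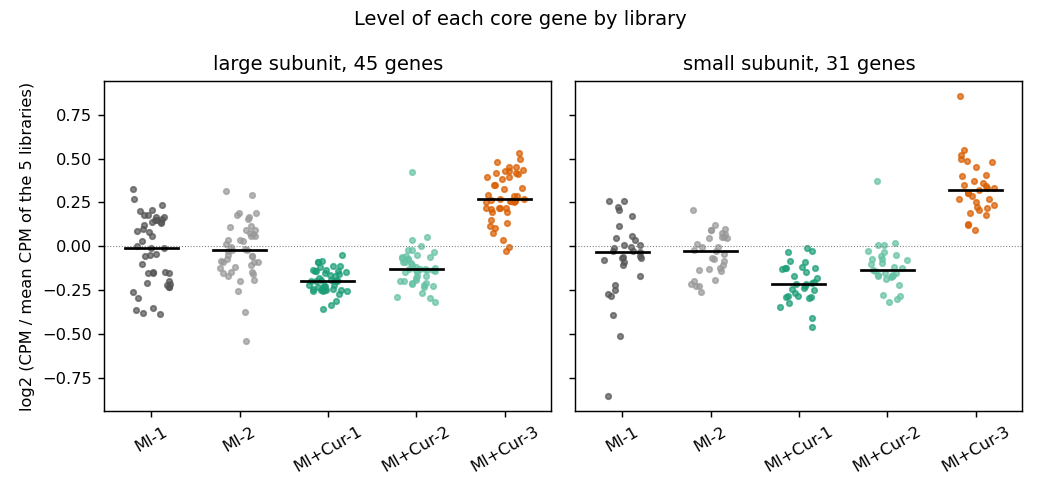
Level of each core gene in each library as log2 of its CPM over its mean CPM in the 5 libraries (points), for the 45 large subunit and 31 small subunit genes with at least 100 counts; black lines are medians. The median of the third curcumol library lies above those of the other 4 libraries for both subunits, and the untreated medians lie above those of curcumol libraries 1 and 2.

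Other values moved with the third curcumol library. It had the most genes with a count (18501), the highest fibroblast marker sum (330 CPM) and the lowest macrophage marker sum (36292 CPM), while its neutrophil sum lay between those of the other curcumol libraries. Short transcripts were also higher there: over abundant genes that are no members, the median log2 difference from curcumol libraries 1 and 2 was 0.22 for transcripts of up to 750 bases (78 genes), 0.19 for those up to 1500 bases (511 genes), -0.03 for those up to 3000 bases (1585 genes) and -0.16 for longer ones (2140 genes). Core members had higher medians in each class, with 0.48 (31 genes), 0.43 (35 genes), 0.46 (8 genes) and 0.44 (2 genes). Members were classed by their principal transcript and other genes by their longest one, so the classes are not strictly alike. The part of cell makeup, transcript length or RNA quality in the higher ribosomal protein levels was not tested.

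Levels between genes were compared per kilobase of the annotated transcript, and they spanned a wide range although most ribosomal proteins enter the ribosome in equal numbers. The highest was Rpl13, a large subunit protein, with 873 ± 76.4 CPM per kilobase untreated (SD, n = 2) and 839 ± 152 with curcumol (SD, n = 3). Rps19, a small subunit protein whose human counterpart is mutated in Diamond-Blackfan anaemia, followed with 586 ± 29.3 and 579 ± 133 CPM per kilobase. The order here is by the mean of the 2 group means, and Rps29, Rpl10 and Rps14 came next. They had 532 ± 56.2, 564 ± 111 and 522 ± 68.2 CPM per kilobase untreated and 605 ± 56.3, 551 ± 97.4 and 573 ± 176 with curcumol. The ranges of mean ± SD overlapped between neighbours from Rps19 to Rps14. Rps15a and Rps20 are listed low per kilobase (13.1 and 15.9 untreated), but their annotated transcripts of 5179 and 3706 bases are far longer than the median core transcript of 830 bases.

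Rpl28, a constitutive large subunit protein, was nearly without counts. It had 9 and 7 counts untreated and 3, 5 and 2 with curcumol, under the level needed to be tested. No other gene overlaps Rpl28 in RefSeq, and 34.5% of its 50-base stretches occur in other genes. How the authors' counting treated this gene is not stated in the labels, so its level is given only as listed.

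The P stalk of the large subunit, made of Rplp0 with the acidic proteins Rplp1 and Rplp2, recruits and activates elongation factors. Rplp0 had 689 and 590 CPM untreated and 561, 544 and 721 CPM with curcumol. Its groups overlapped, with a log2 fold change of -0.07 (SE 0.19, adjusted p = 0.872 in edgeR). Rplp1 had 183 and 182 CPM untreated and 176, 178 and 265 CPM with curcumol. Only the third curcumol library stood apart there, the log2 fold change was 0.18 (SE 0.22, adjusted p = 0.700 in edgeR), and without that library it was -0.04. Rplp2 had 112 and 98.3 CPM untreated and 82.5, 95 and 111 CPM with curcumol, overlapping groups with a log2 fold change of -0.13. Per kilobase Rplp0 and Rplp1 lay at 471 and 365 CPM untreated and Rplp2 at 109.

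Other large subunit members with known roles outside the ribosome gave no call. Rpl11 and Rpl5 together with 5S RNA bind the p53 regulator MDM2 when ribosome assembly is disturbed. Rpl11 had 139 and 146 CPM untreated and 111, 119 and 137 CPM with curcumol, so its groups did not overlap, by about 1 CPM between the nearest libraries, and its log2 fold change was -0.22 (SE 0.16, adjusted p = 0.481 in edgeR). Rpl5 had 147 and 189 CPM untreated and 147, 164 and 231 CPM with curcumol, and its groups overlapped. Rpl13a, known from work on interferon-gamma treated monocytes as a protein that can leave the ribosome and silence inflammatory messages, had 186 and 203 CPM untreated and 174, 180 and 288 CPM with curcumol. The third curcumol library was the highest and the other 4 lay between 174 and 203 CPM.

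Rpl37a, a zinc-binding protein of the large subunit, had the smallest p of the members. It had 149 and 132 CPM untreated and 161, 257 and 259 CPM with curcumol. Both curcumol libraries 2 and 3 were well above the untreated ones, and curcumol library 1 was only slightly above. The log2 fold change was 0.69 with a 95% interval from 0.09 to 1.28 and an adjusted p of 0.150 in edgeR, and all 3 curcumol libraries lay on the higher side. Leaving out 1 library at a time gave log2 values from 0.57 to 0.88, and the alternatives gave it adjusted p-values from 0.0699 in DESeq2, the lowest of any member, to 0.555 in edgeR with a replicate block.

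The lowest log2 values among large subunit core genes were those of Rpl27, Rpl18, Rpl4 and Rpl11. Rpl27 had 103 and 99.3 CPM untreated and 74.7, 72.9 and 96.9 CPM with curcumol, with a log2 fold change of -0.31 (SE 0.19, adjusted p = 0.375 in edgeR). Rpl4, which lines the exit tunnel of the nascent chain, had 599 and 567 CPM untreated and 484, 488 and 523 CPM with curcumol. All 3 curcumol values lay below both untreated ones, with a log2 fold change of -0.23 (SE 0.14, adjusted p = 0.392 in edgeR). Rpl18 had 235 and 184 CPM untreated and 164, 166 and 187 CPM with curcumol, and the high value of untreated library 1 set it apart. Rpl30, a small protein of the large subunit at the subunit interface, had the second highest log2 value there at 0.29, from 74.1 and 57.6 CPM untreated and 70.1, 69.2 and 102 CPM with curcumol.

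In the small subunit, Rps6 is the protein that S6 kinase phosphorylates downstream of mTORC1. It had 236 and 246 CPM untreated and 209, 206 and 276 CPM with curcumol. Its groups overlapped, with a log2 fold change of -0.07 (SE 0.18, adjusted p = 0.877 in edgeR). Rpsa, which is also known as the laminin receptor precursor, had 219 and 197 CPM untreated and 190, 214 and 324 CPM with curcumol. The log2 fold change of Rpsa was 0.22, and -0.04 without the third curcumol library. Rps19 had 384 and 358 CPM untreated and 310, 327 and 463 CPM with curcumol.

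Rps12 had the highest log2 fold change of the core genes and the widest interval. It had 13.9 and 22.8 CPM untreated and 18.3, 25.3 and 45.7 CPM with curcumol. The untreated libraries differed by a ratio of 1.64 and the third curcumol library stood apart. The log2 fold change was 0.70 with a 95% interval from -0.41 to 1.80 (adjusted p = 0.419 in edgeR), 1.12 without untreated library 2 and 0.25 without the third curcumol library. Rps12 also shares 83.2% of its stretches with other genes and carries small nucleolar RNAs inside its gene.

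Other small subunit genes at the ends of the order gave no call. Rps25, a protein known for its part in initiation at internal ribosome entry sites, had 156 and 174 CPM untreated and 142, 245 and 227 CPM with curcumol. Curcumol library 1 was the lowest of all 5 and libraries 2 and 3 the highest, and the log2 fold change was 0.31 (SE 0.26, adjusted p = 0.528 in edgeR). Rps27 had 142 and 160 CPM untreated and 147, 161 and 252 CPM with curcumol, and Rps27a, made as a fusion with ubiquitin, had 99.6 and 130 CPM untreated and 104, 131 and 188 CPM with curcumol. Their log2 values were 0.31 and 0.30, and for both only the third curcumol library was clearly above the rest. Rps15 had a log2 value of -0.28. Rps15 had 167 and 178 CPM untreated and 131, 127 and 168 CPM with curcumol, so the third curcumol library lay among the untreated ones.

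A few core genes departed from the common pattern. For each library the log2 level of a gene was set against the typical core gene, and the range of this departure over the 5 libraries had a median of 0.34 log2. It exceeded 0.6 in 6 genes, Rps12, Rpl37a, Rps25, Rpl34, Rps24 and Rpl18, and was under 0.2 in 13. Rps9 kept within 0.10 log2 of the same position throughout. Rpl37a went from -0.33 and -0.52 untreated to -0.05, 0.56 and 0.15 with curcumol, and Rps25 from -0.24 and -0.10 to -0.21, 0.50 and -0.02. Both were highest in curcumol library 2. Rpl34 and Rps24 differed mainly between the untreated libraries, at -0.36 and 0.34 and at -0.48 and 0.12. The 6 genes were chosen after their values were seen, and no test was made of the departures.

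**Figure D4:**
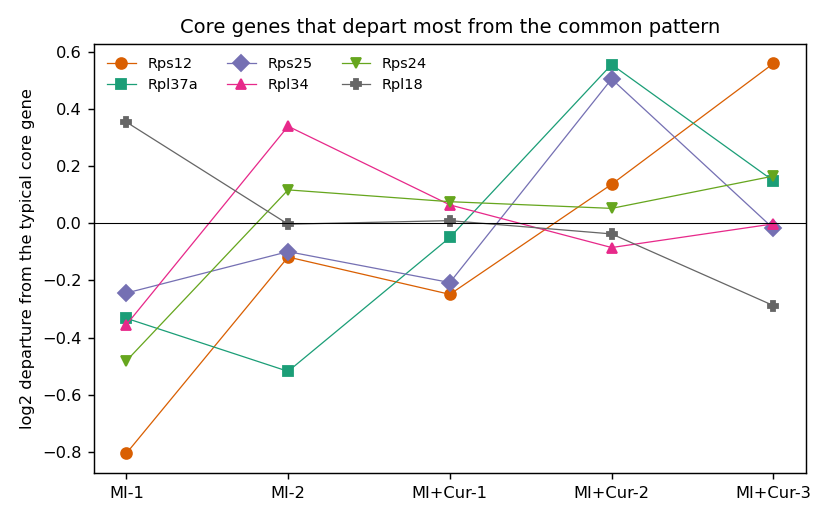
Departure of 6 core genes from the typical core gene (log2, vertical axis) in each of the 5 libraries (horizontal axis). Rpl37a and Rps25 are highest in the second curcumol library (0.56 and 0.50), and Rps12 is farthest above the common pattern in the third (0.56).

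The paralogs were low or close to the core genes. Rps27l, a paralog of Rps27 that is a p53 target, was the most abundant, with 123 and 155 CPM untreated and 123, 127 and 143 CPM with curcumol and a log2 fold change of -0.08. Rpl7l1 had 101 and 136 CPM untreated and 143, 116 and 118 CPM with curcumol, with a log2 fold change of 0.09. Rpl22l1, whose level in other cells is held down by Rpl22, had 18.9 and 34.4 CPM untreated and 16.3, 18.7 and 23.7 CPM with curcumol. Untreated library 2 alone set the difference of Rpl22l1: the log2 fold change was -0.45 (SE 0.35, adjusted p = 0.502 in edgeR) and 0.07 without that library. Rpl22 itself had 36.1 and 30.5 CPM untreated and 27.3, 29.2 and 38.8 CPM with curcumol.

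The tissue-restricted paralogs were near the floor. Rpl3l, a paralog of Rpl3 found mainly in heart and skeletal muscle, had 0 and 15 counts untreated and 12, 5 and 18 with curcumol. Rpl39l, best known from testis, had 39 and 34 counts untreated and 13, 2 and 16 with curcumol, which is 0.988 and 0.870 CPM against 0.311, 0.0454 and 0.376 CPM. Its groups did not overlap, and the log2 fold change of -1.92 had a 95% interval from -4.62 to 0.79 (adjusted p = 0.358 in edgeR). The copies Rpl6l (8.90 to 13.7 CPM in all libraries) and Rpl32l (2 to 10 counts) showed no separation of the groups.

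Fau encodes a small subunit protein fused to a ubiquitin-like protein and stands outside the naming rule. Fau had 128 and 126 CPM untreated and 125, 125 and 190 CPM with curcumol. It was at its highest in the third curcumol library, as most core genes were.

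No gene of the lists on making and regulating ribosomes passed the test either. The lists held the TOP-type genes of translation outside the ribosome (23 tested), other translation factors (32), ribosome biogenesis (40), RNA polymerase I with its factors (16), mTORC1 and S6 kinase signalling (32), ribosome quality control (15) and mitochondrial ribosomal proteins (78), and 0 genes of each had an adjusted p under 0.05 in edgeR, beside 0.207% of all genes. At an unadjusted p under 0.05 the counts were 2, 6, 6, 2, 5, 3 and 4 in that order, against 24.6% of all genes.

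The values of these lists differed in sign. Ribosome biogenesis had 12 positive and 28 negative log2 values with a median of -0.31, and other translation factors 6 and 26 with a median of -0.23, beside medians of 0.15 over all genes and -0.10 over abundant genes. Mitochondrial ribosomal proteins had 24 and 54 with a median of -0.11, and RNA polymerase I 6 and 10 with a median of -0.18. The TOP-type genes had 10 and 13 with a median of -0.02, mTORC1 signalling 19 and 13 with 0.06, and ribosome quality control 9 and 6 with 0.13. The core ribosomal proteins lay nearer to the TOP-type genes than to biogenesis factors in both measures of the plot by list, and no test of that difference was made.

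**Figure D5:**
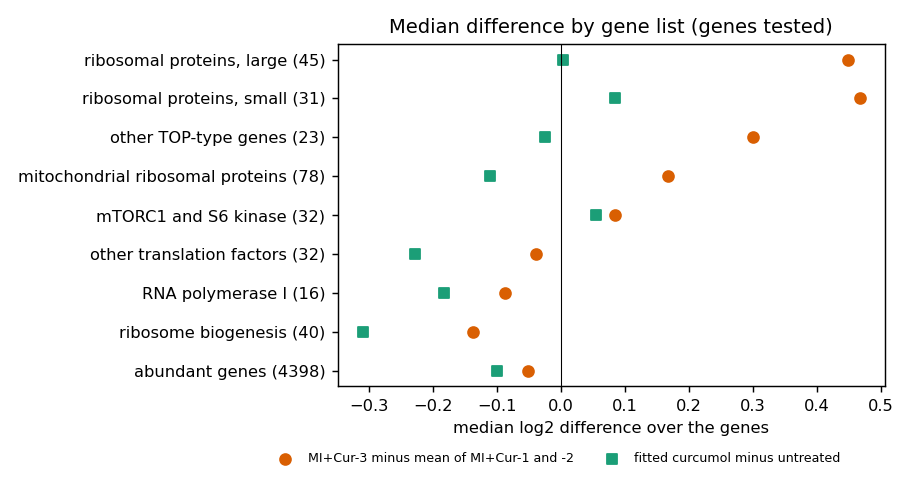
Median log2 difference over the tested genes of each list (number in brackets) between curcumol and untreated libraries (squares) and between the third curcumol library and the mean of the other curcumol libraries (circles). Ribosomal proteins have the highest circles (0.45 and 0.47), followed by TOP-type genes at 0.30, and biogenesis genes the lowest of both marks (-0.31 and -0.14).

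In the third curcumol library the TOP-type genes were higher by a median of 0.30 log2 and 13 of 23 (56.5%) had their highest level there, beside 11.5% of abundant genes. Biogenesis genes were at -0.14 with 1 of 40 (2.5%), and other translation factors at -0.04 with 3 of 32 (9.38%). Mitochondrial ribosomal proteins were at 0.17 with 17 of 78 (21.8%).

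Several named genes of the lists had groups that did not overlap, as can follow from naming the genes with the smallest p. Myc, a transcription factor that drives ribosome production, had 120 and 105 CPM untreated and 47.9, 35.2 and 38.0 CPM with curcumol. Its groups were far apart, but with a log2 fold change of -1.48 (SE 0.20) it had an adjusted p of 0.0524 in edgeR and just missed the threshold. Cdkn1a, the p53 target that halts the cell cycle, had 532 and 612 CPM untreated and 257, 232 and 270 CPM with curcumol, also with an adjusted p of 0.0524 in edgeR. Nop2, a methyltransferase of 28S ribosomal RNA, had 17.4 and 17.6 CPM untreated and 36.9, 34.2 and 31.2 CPM with curcumol (log2 fold change 0.96, adjusted p = 0.0722 in edgeR). Grwd1, a chaperone of Rpl3, had 39.6 and 33.9 CPM untreated and 25.2, 20.8 and 17.5 CPM with curcumol (adjusted p = 0.114 in edgeR). Both groups of Nop2 and of Grwd1 were apart, in opposite directions. Over the whole biogenesis list 3 of 40 genes lay apart and higher with curcumol, and 13 lay apart and lower. RNA polymerase I had 5 and 5 of 16, and ribosome quality control 2 and 4 of 15, beside 29.5% and 14.9% of all genes.

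Initiation factors gave further values without a call. Eif1, which guards start codon choice, had 608 and 644 CPM untreated and 439, 409 and 457 CPM with curcumol (log2 fold change -0.53, adjusted p = 0.0816 in edgeR). Eif4b, a TOP-type gene that assists the helicase Eif4a, had 27.5 and 52.1 CPM untreated and 62.3, 88.2 and 82.2 CPM with curcumol (log2 fold change 0.96, adjusted p = 0.125 in edgeR). Npm1, which encodes a nucleolar chaperone, had 235 and 211 CPM untreated and 141, 173 and 164 CPM with curcumol. The groups of all 3 genes were apart, as can follow from naming the genes with the smallest p. Over the whole lists the groups were apart in 5 of 23 TOP-type genes and 13 of 32 other factors, beside 44.4% of all genes.

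In the mTORC1 list, Tsc1, an inhibitor of mTORC1, had 8.84 and 9.77 CPM untreated and 17.6, 19.6 and 20.5 CPM with curcumol (log2 fold change 1.05, adjusted p = 0.0881 in edgeR). Pdcd4, an inhibitor of Eif4a that S6 kinase marks for degradation, had 4.05 and 1.97 CPM untreated and 8.87, 21.9 and 10.4 CPM with curcumol (adjusted p = 0.0956 in edgeR). Both were higher in all 3 curcumol libraries, as were 7 of the 32 genes of this list in all, while 5 were lower in all 3. Among all genes tested these shares were 29.5% and 14.9%, and in the mitochondrial list 7 and 14 of 78 genes. Of the mitochondrial list, Mrps15 had 81.3 and 90.7 CPM untreated and 52.9, 52.7 and 50.3 CPM with curcumol (log2 fold change -0.73, adjusted p = 0.0671 in edgeR).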

How the data were processed

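Bulk RNA-seq of sorted cardiac macrophages gave 2 untreated and 3 curcumol libraries, tied to columns by title. The authors deposited whole-number counts per gene without normalization. The submitters' processing notes list HISAT2, Bowtie2, HTSeq and fastp without a version or order. A genome build is not given in the sources used here, and every value column belonged to a sample. The library kit is named in 2 ways (VAHTS Universal per the labels' protocols, TruSeq Stranded per the series' design text), so strandedness is unsettled and overlapping or antisense genes cannot be told apart.

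Counts were scaled with TMM, filtered with filterByExpr (minimum count 10) and tested with edgeR 4.0.16 (R 4.3.3), a quasi-likelihood fit on group alone with 3 residual degrees of freedom and Benjamini-Hochberg adjustment over all 14508 genes. DESeq2 1.42.0 and limma 3.58.1 were alternatives. The fit was also run on simulated counts with a smaller spread between libraries than the common spread estimated here. That run does not measure power or error rates for these libraries. An exact permutation test of 2 against 3 libraries cannot go under p = 0.1 and was not used. Lengths of members, found for 82, are those of GENCODE M21 principal coding transcripts. Lengths of other genes, and all lengths used to remove the length trend, are those of the longest transcript, a coding one where annotated. Promoter sequences are from RefSeq GRCm38.p6.

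The members and lists were chosen with earlier results of these data known. Members named are those past the threshold, the 8 most abundant, the 6 highest and 6 lowest core log2 values, a list of known genes (P stalk, Rpsa, Rps6, Rpl5, Rpl11, Rpl13a, Rps19) and the paralogs. From other lists the 2 smallest p are named. Some genes that this rule takes are not reported here. Genes named for low level, non-overlap, sequence or departure were chosen after their values were seen. Same-numbered libraries of the groups are not known to share more than a number, so the main fit did not pair them.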

Additional observations from a re-analysis of the deposited data

How the results depend on the processing

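Members past the threshold were 0 in each alternative tested. Calls over all genes, 30 as reported, were 2346 with DESeq2, 1661 with limma-voom, 416 without a filter on low counts, 98 with CPM of at least 1 in 2 libraries, 10 with total counts, 45 with a replicate block, and 0 to 3531 with 1 library left out, so the count of all genes depends strongly on the tool and on single libraries: 0 without curcumol library 2, 1 without curcumol library 1, 19 without curcumol library 3, 2950 without untreated library 1 and 3531 without untreated library 2. In the last 2 fits the spread comes from the curcumol libraries alone, and the lone untreated library is assumed to vary as they do. The median log2 value of all members, 0.03, was 0.22 with total counts (large subunit 0.19) and ranged from -0.15 to 0.11 with 1 library left out. With the replicate block it was -0.14, and by construction that fit gives curcumol library 3 no partner. Deviations of same-numbered libraries correlated at 0.0257 and -0.0267. The deviations of 2 untreated libraries mirror each other, so these values cannot settle whether the numbers pair the libraries.

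Of 21 members followed through the alternatives, 13 kept their sign in each. Signs turned with total counts for Rps27l (0.10), Rplp0 (0.12), Rplp2 (0.062) and Rps6 (0.12), with the length trend removed for Rplp0 (0.050) and Rps6 (0.035), and with the replicate block for Rplp1 (-0.043) and Rpsa (-0.042). With 1 library left out the range was -0.81 to 0.074 for Rpl22l1, -0.24 to 0.11 for Rps27l, -0.11 to 0.34 for Rpl7l1, -0.21 to 0.048 for Rplp0, -0.043 to 0.29 for Rplp1, -0.042 to 0.38 for Rpsa and -0.22 to 0.012 for Rps6. The cause was not tested. An alternative chosen after seeing the data, without the paralogs and like-copies, gave 0.03. With 2 untreated libraries the depth allows no finer statement on Rpl3l, Rpl28 or Rpl32l.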
